A study of Mus musculus with 12 samples.

Results

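The genes described here encode the presynaptic vesicle and release machinery, the proteins that store neurotransmitter in vesicles, fuse those vesicles with the plasma membrane when calcium enters, and take the membrane back. The members were 31 genes listed by symbol, among them synapsins, synaptotagmins, SNARE proteins and their regulators, active zone scaffolds and vesicular glutamate transporters. All 31 were found, each as 1 gene, among the 19312 genes of the deposited table. RNA-Seq of the forebrain was available for 12 male mice at postnatal day 25 (P25), strain C57BL/6N, with 3 mice in each of 4 groups and no pooling of brains. WT-Veh and KO-Veh mice received vehicle (0.1% saccharin) and WT-Mem and KO-Mem mice received memantine, an NMDA receptor blocker, at 20 mg/kg by mouth, 2 times a day over P7 to P21. KO mice lacked exons 6 and 7 of both Shank2 alleles, and WT mice were the wild-type controls. Shank2 is a scaffold of the postsynaptic side of excitatory synapses, whereas the 31 genes act on the presynaptic side. The sample labels give whole brain as the tissue, whereas the methods give forebrain after removal of the cerebellum and the brain stem beneath it.

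In the nerve terminal, vesicles are filled with glutamate by vesicular transporters and tethered by synapsins. Active zone scaffolds and Munc13 proteins dock and prime them, and the SNARE complex of syntaxin, SNAP-25 and synaptobrevin fuses them under the control of complexins and the calcium sensor synaptotagmin. Dynamin, amphiphysin and synaptojanin then recover the membrane by endocytosis. Several of these proteins come in versions that differ between brain regions: Vglut1 (Slc17a7) prevails in cortex and hippocampus and Vglut2 (Slc17a6) in thalamus and brain stem, whereas Syt2 and Vamp1 are prominent in brain stem and in fast-spiking neurons.

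The values are normalized counts, that is, estimated reads per gene scaled so that mice can be compared, and they sum to between 30373849 and 31199251 per mouse, which is not their depth. The median of the low values above 0, taken up to a fixed limit just above 1, was 0.872 to 1.13 normalized counts per mouse. It is only a rough guide to the size of 1 read, because the limit itself keeps it near 1. Shank2 itself was at 7156 to 8548 in the 6 WT mice and at 2706 to 3178 in the 6 KO mice, so the genotype labels and this gene went together in 12 of 12 mice, although a gene-level value also counts the exons that were not deleted. Several mice stood apart in markers of tissue or cell type. KO-Veh 3 had summed cerebellar markers (9 of 9 listed genes found) of 6127 against 2646 to 2968 in the other 11 mice, with Gabra6, a cerebellar granule cell gene, at 254 against at most 12.9. WT-Veh 3 had the highest sum of 8 oligodendrocyte markers, 424484 against 250228 to 360842 in the others. KO-Mem 1 had the lowest sums of choroid plexus (7287 against 10586 to 15587), oligodendrocyte (250228), oligodendrocyte precursor (6356) and erythrocyte markers (5454). Because whole forebrain was sequenced, fewer cells of a type and less RNA per cell cannot be told apart in any value below.

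The sequences just upstream of the start of the 3 genes called lower in KO mice, and of Syn1, which just missed the threshold, are printed from the RefSeq promoter windows (build GRCm38.p6), 5′ to 3′ on the strand of the gene. Each run has at most 200 bases and holds no annotated exon of its gene. For this reason the 86 bases next to the RefSeq start of Syn1 and the 4 next to that of Slc17a8, which annotated exons cover, are left out, and the printed runs end that far before the RefSeq start. The Cplx1 run is chr5:108550028-108550227, that of Rph3a chr5:121010093-121010292, that of Slc17a8 chr10:89621254-89621453 and that of Syn1 chrX:20921005-20921168, all on the minus strand. Capitals mark the GC box (GGGCGG), the cAMP response element (TGACGTCA), the TATA box (TATAAA) or the first part of the RE1 element that the repressor REST binds (TTCAGCACC), on either strand.
Cplx1: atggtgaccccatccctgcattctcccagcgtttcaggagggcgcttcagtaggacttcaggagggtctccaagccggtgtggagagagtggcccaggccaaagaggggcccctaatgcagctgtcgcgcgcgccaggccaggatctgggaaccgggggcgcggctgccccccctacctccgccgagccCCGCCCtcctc
Rph3a: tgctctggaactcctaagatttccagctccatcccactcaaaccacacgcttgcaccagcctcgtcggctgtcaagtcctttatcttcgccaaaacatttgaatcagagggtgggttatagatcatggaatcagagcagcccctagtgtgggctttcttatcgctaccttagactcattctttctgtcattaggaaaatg
Slc17a8: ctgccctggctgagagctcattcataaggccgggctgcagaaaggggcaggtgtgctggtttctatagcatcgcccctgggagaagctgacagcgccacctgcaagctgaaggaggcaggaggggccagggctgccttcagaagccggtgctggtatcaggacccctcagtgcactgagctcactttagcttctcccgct
Syn1: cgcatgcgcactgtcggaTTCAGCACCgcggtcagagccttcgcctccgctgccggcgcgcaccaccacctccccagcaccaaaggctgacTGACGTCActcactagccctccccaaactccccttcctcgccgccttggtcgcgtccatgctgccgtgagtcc
In Cplx1 the capitals are a GC box 11 to 6 bases before the start, read on the opposite strand. In Syn1 they are an RE1 part 232 to 224 bases and a cAMP response element 159 to 152 bases before the RefSeq start, both counted over the 86 bases left out. Neither the Rph3a run nor the Slc17a8 run held any of the 4 motifs.

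Over whole windows of 300 bases (250 before and 50 after the start), 28 of the 31 genes had an entry, with 40 windows in all. The GC box was in 23 of these 40 windows (57.5%) and in 35.9% of the 32544 windows of all genes, in 22 of 28 member genes. Rph3a, which has 3 windows, was among these 22 genes, although its printed run held no GC box. The cAMP response element was in the window of 1 member gene, Syn1, and in 1.80% of all windows. The TATA box was in the windows of 1 member gene, Sv2b, and in 13.6% of all windows. The RE1 part was in Syn1 and in Unc13a, a Munc13 priming factor, and in 0.372% of all windows. A match describes letters and not a bound site.

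All 31 genes were well measured, with means over 12 mice from 147 (Slc17a8) to 54510 (Snap25) normalized counts and a median of 16361. Together they held 1.82% of all normalized counts. Levels of different genes were compared roughly per kb of merged exons. These take in all annotated transcripts of a gene and can be longer than the transcripts present. Dnm1 (dynamin 1) was the highest at 9144 per kb and Rab3a, the vesicle GTPase, followed at 8719. Cplx1 (complexin 1) was at 8113, Snap25 at 8027 and Slc17a7 at 7504 per kb. The order of these 5 genes was only partly the same in each mouse. Dnm1 and Rab3a were above Slc17a7 in every mouse, as was Rab3a above Snap25. In WT-Veh 3, however, Cplx1 (10057 per kb) was above Dnm1 (7650). The lowest were Syt2 at 284, Sv2c at 231, Unc13c at 187 and Slc17a8 (Vglut3) at 31.2 per kb. The 3 vesicular glutamate transporters therefore spanned the list, with Slc17a6 at 438 per kb between Slc17a7 and Slc17a8.

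**Figure D1:**
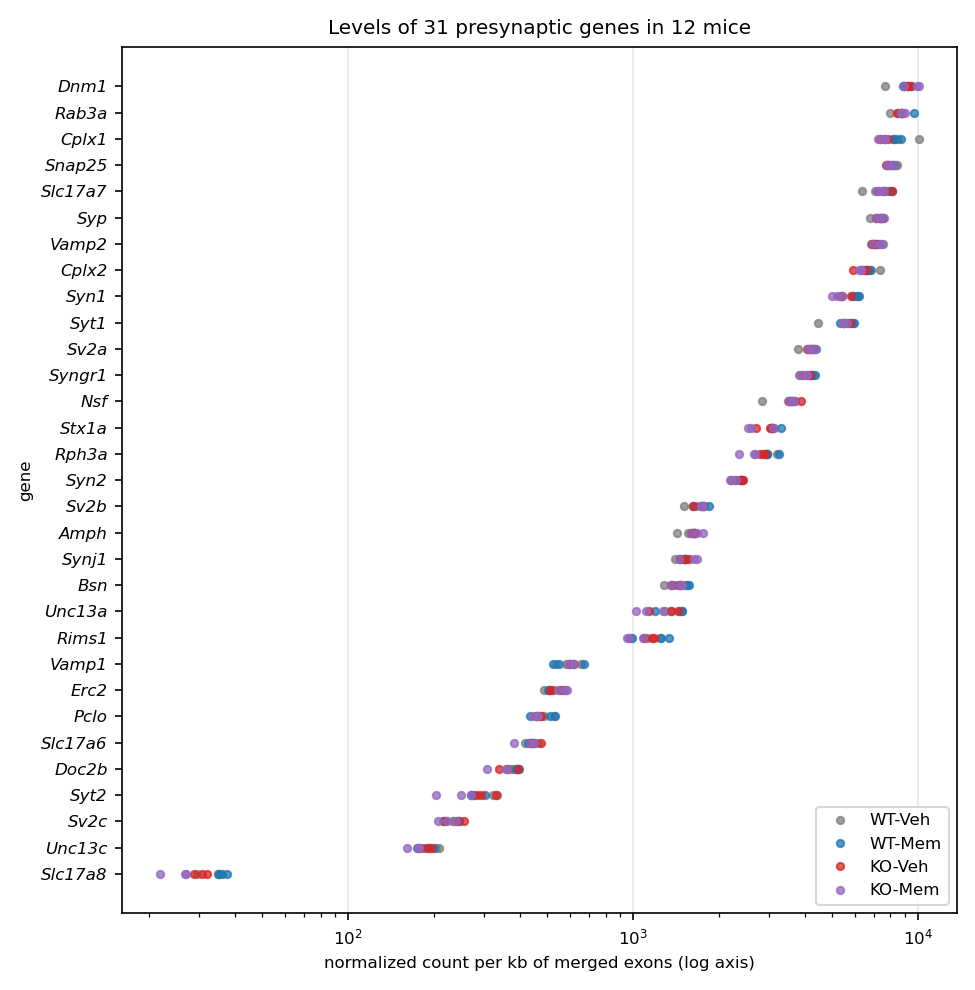
Level of each of the 31 genes in each of 12 mice, as normalized counts per kb of merged exons on a log axis, with genes ordered by their mean and points coloured by group. Means run from 31.2 (Slc17a8) to 9144 (Dnm1) per kb, and the spread over mice within a gene is small beside the differences between genes.

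The genes varied little between mice. The coefficient of variation over the 12 mice had a median of 6.49%, ran from 3.03% (Snap25) to 15.1% (Slc17a8), and was under 10% for 27 of 31 genes. The other 3 genes above 10% were Syt2 (13.0%), Unc13a (12.0%) and Rims1 (11.4%). The deviations were not spread evenly over mice. WT-Veh 3 was the lowest of 12 mice for 12 genes and the highest for 4, and deviated by more than 0.1 on the log2 scale from the gene mean for 20 of 31. KO-Mem 1 was also the lowest for 12 genes, with 16 of 31 deviating by more than 0.1, and the part of its marker values in this was not tested. In the other 10 mice this number was between 1 (KO-Mem 3) and 10.

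**Figure D2:**
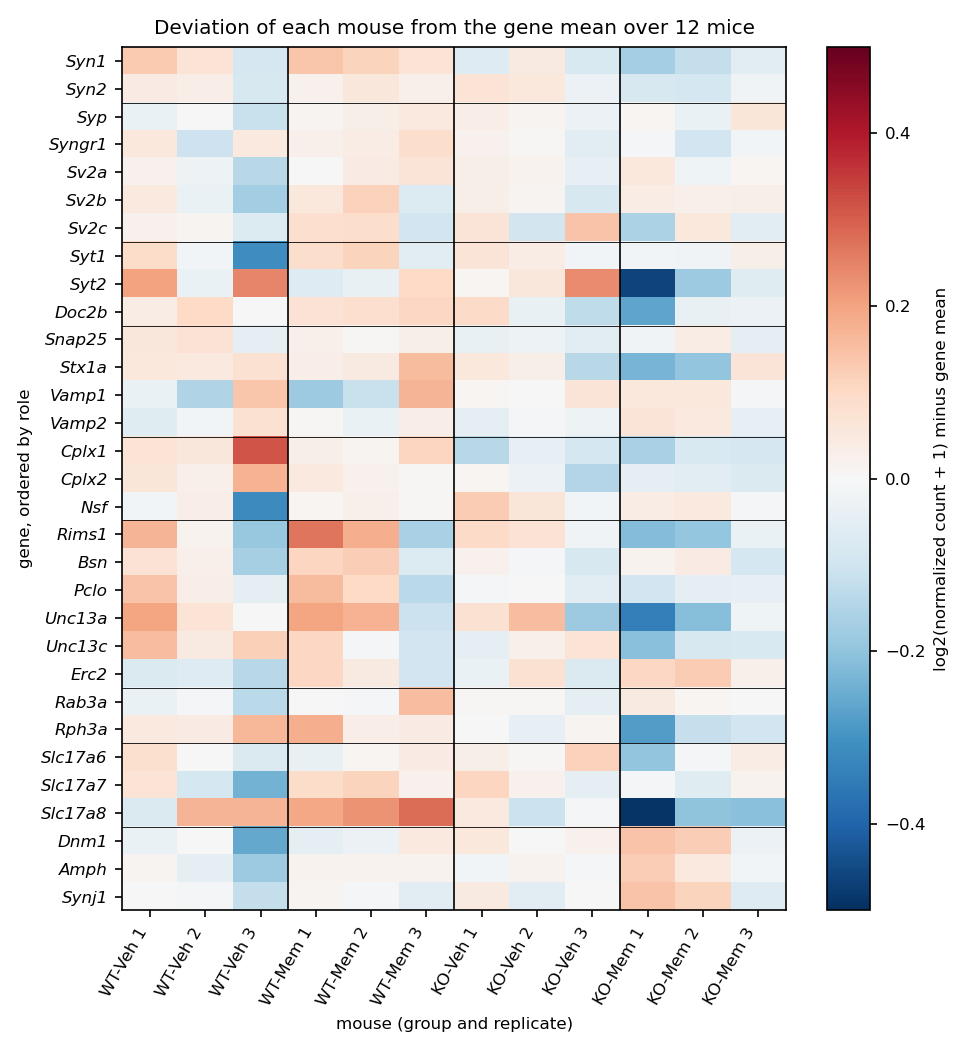
Difference of log2(normalized count + 1) of each mouse (columns, WT mice left and KO mice right, vehicle before memantine) from the mean of the gene over 12 mice (rows, ordered by role). WT-Veh 3 and KO-Mem 1 are the columns with the most deviations, and the KO columns are lower than the WT columns for Cplx1 and Rph3a.

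To determine the difference between genotypes, KO mice were compared with WT mice over both treatments (6 against 6 mice), with limma on log2(normalized count + 1) and Benjamini-Hochberg adjustment over all genes tested. Of the 31 genes, 3 were called at an adjusted p under 0.05, and all 3 fell in KO mice: Cplx1, Rph3a and Slc17a8. Over all 17655 genes tested, 10.5% were called, 4.79% higher and 5.73% lower, so the share of members called (9.68%) was near this background. The median log2 fold change of the 31 genes was -0.03, beside 0.00 over all genes. The median of its absolute size was 0.06, beside 0.13 over all genes, which were not matched to the members by abundance. At an unadjusted p under 0.05, 8 of 31 genes were lower and 0 were higher in KO mice, beside 29.4% of all genes in either direction and 15.1% lower. These 8 were Syn1, Doc2b, Stx1a, Cplx1, Cplx2, Unc13a, Rph3a and Slc17a8.

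**Figure D3:**
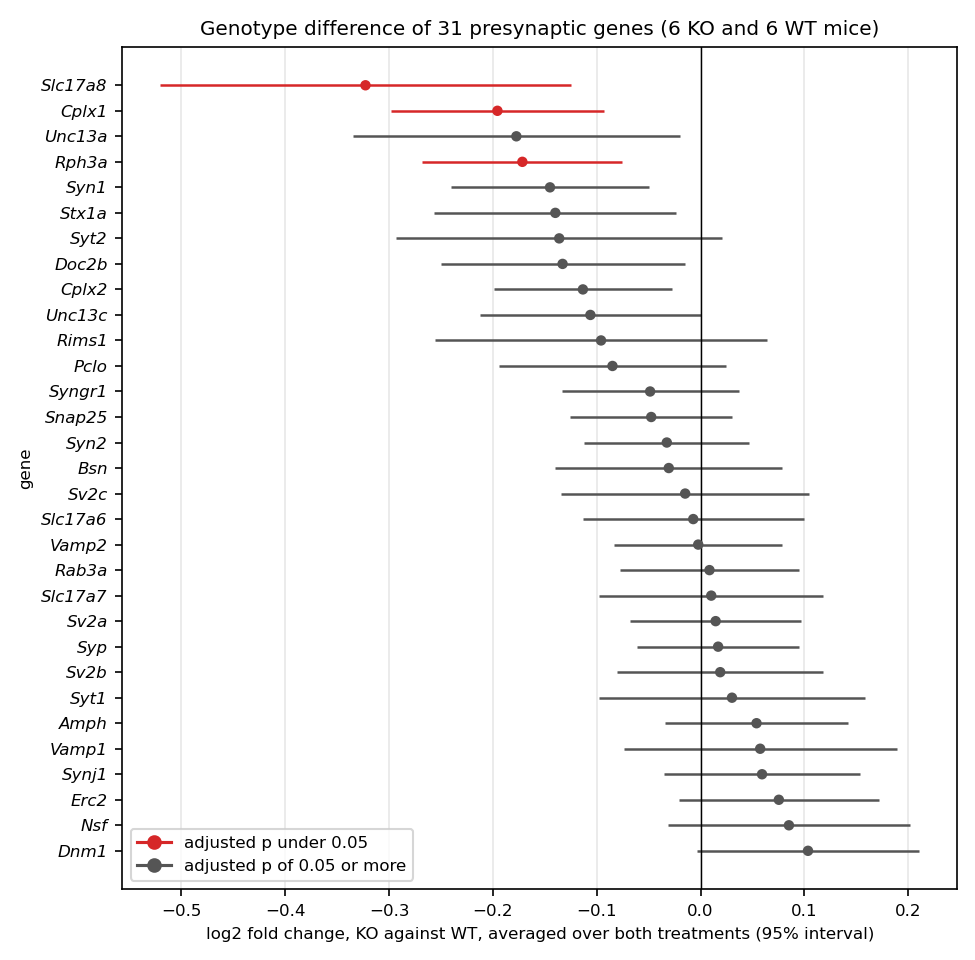
Log2 fold change of KO against WT mice, averaged over both treatments, with its 95% interval from limma for each of the 31 genes; red marks an adjusted p under 0.05. Slc17a8 (-0.32), Cplx1 (-0.20) and Rph3a (-0.17) are red and below 0, and Dnm1 (0.10) has the highest value.

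Cplx1 (ENSMUSG00000033615, chr5:108518554-108550024, minus strand, GRCm38) encodes complexin 1, which clamps and activates the assembled SNARE complex. In normalized counts, WT-Veh mice had 18543, 18382 and 22015 and WT-Mem mice 18032, 17852 and 19069, whereas KO-Veh mice had 16086, 17177 and 16666 and KO-Mem mice 15817, 16777 and 16706. Every KO mouse was below every WT mouse, in vehicle and memantine groups alike. The log2 fold change was -0.20 ± 0.05 (SE), or -12.7%, with an adjusted p of 0.0246. The highest value was that of WT-Veh 3, and without this mouse the log2 fold change was -0.15 with an adjusted p of 0.0294. The call was lost without KO-Veh 1 (adjusted p = 0.0594), KO-Veh 3 (0.0628), KO-Mem 1 (0.0666) or KO-Mem 2 (0.0506). The log2 fold changes in these 4 fits were -0.20 to -0.18, near that of all mice. Leaving out WT-Veh 3 and KO-Veh 3 together gave -0.15 with an adjusted p of 0.0723.

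Rph3a (ENSMUSG00000029608, chr5:120940499-121010092, minus strand) encodes rabphilin 3A, a vesicle protein that binds Rab3. In normalized counts, WT-Veh mice had 13737, 13678 and 14895 and WT-Mem mice 15060, 13606 and 13669, whereas KO-Veh mice had 13258, 12916 and 13411 and KO-Mem mice 10954, 12272 and 12436. The 6 KO mice were again all below the 6 WT mice, and KO-Mem mice were all below KO-Veh mice. The log2 fold change was -0.17 ± 0.05 (SE), or -11.2%, with an adjusted p of 0.0302. Cplx1 and Rph3a were the only members whose KO and WT mice did not overlap, 2 of 31, beside 2.2% of all genes whose KO mice were all lower. The Rph3a call was lost in 8 of 12 fits that left out 1 mouse, namely WT-Veh 2, WT-Veh 3, WT-Mem 1, any KO-Veh mouse, KO-Mem 1 or KO-Mem 2, with log2 fold changes from -0.18 to -0.14 and adjusted p from 0.0517 to 0.0790. It was also lost without WT-Veh 3 and KO-Veh 3 together (-0.16, adjusted p = 0.100).

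Slc17a8 (ENSMUSG00000019935, chr10:89574020-89621253, minus strand) encodes Vglut3, the vesicular glutamate transporter of a minority of serotonergic, cholinergic and interneuron terminals. In normalized counts, WT-Veh mice had 139, 164 and 164 and WT-Mem mice 167, 171 and 177, whereas KO-Veh mice had 151, 135 and 145 and KO-Mem mice 103, 127 and 126. KO-Veh and WT-Veh mice overlapped, because WT-Veh 1 was below 2 of the KO-Veh mice, whereas KO-Mem mice were below all other mice. The log2 fold change was -0.32 ± 0.09 (SE), or -20.0%, with an adjusted p of 0.0402. This call was lost in 10 of 12 fits that left out 1 mouse, all but those without WT-Veh 1 or KO-Mem 3, with log2 fold changes from -0.35 to -0.27 and adjusted p from 0.0626 to 0.0969. Without WT-Veh 3 and KO-Veh 3 it was -0.31 with an adjusted p of 0.138. Tph2, a marker of serotonergic neurons, was at 16.7 to 230 normalized counts with overlapping groups, and its part in the Slc17a8 result was not tested.

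Syn1 (ENSMUSG00000037217, chrX:20860511-20921004, minus strand) encodes synapsin I, which tethers vesicles to the cytoskeleton. In normalized counts, WT-Veh mice had 20332, 19480 and 17501 and WT-Mem mice 20447, 20037 and 19477, whereas KO-Veh mice had 17771, 19151 and 17629 and KO-Mem mice 16514, 17076 and 17886. KO and WT mice did not overlap under memantine but did under vehicle, where WT-Veh 3 was the lowest. The log2 fold change was -0.14 ± 0.04 (SE) with an adjusted p of 0.0510, just outside the threshold. It passed without WT-Veh 3 (-0.18, adjusted p = 0.0247), KO-Veh 2 (-0.16, 0.0433) or KO-Mem 3 (-0.16, 0.0312). Syn2, the other synapsin listed, had -0.03.

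**Figure D4:**
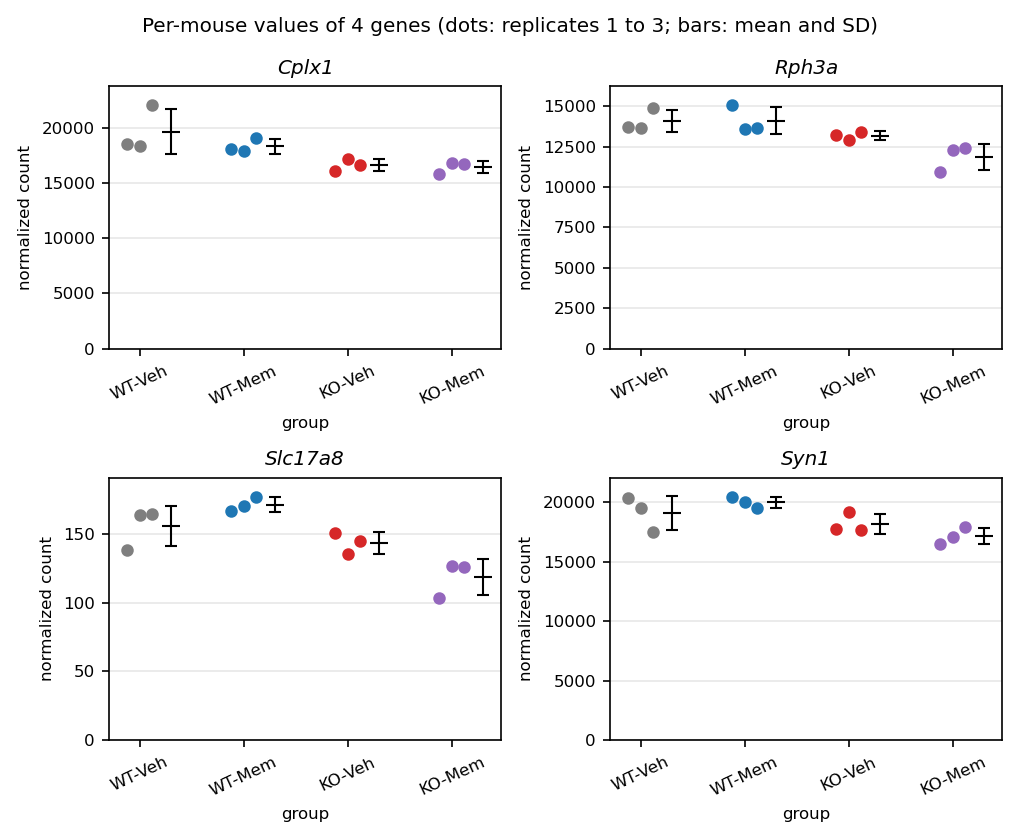
Normalized counts of Cplx1, Rph3a, Slc17a8 and Syn1 in each mouse by group, with the mean and SD of 3 mice beside the points; the axes start at 0. The 6 KO mice lie below the 6 WT mice for Cplx1 and Rph3a, and KO-Mem mice have the lowest mean in all 4 panels.

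By role, none of the other members passed the adjusted threshold between genotypes. Of the SNARE proteins, Snap25 and Vamp2 (synaptobrevin 2), the main fusion partners, had -0.05 and 0.00, Stx1a (syntaxin 1A) had -0.14 and an adjusted p of 0.108, and Vamp1 had 0.06. Among the SNARE regulators, Cplx2 had -0.11 (adjusted p = 0.0806), with group means of 34241 ± 1876, 32791 ± 501, 31008 ± 1703 and 30946 ± 310 (SD, n = 3), given for WT mice with vehicle and memantine and then KO mice in the same order. Nsf, the ATPase that takes spent SNARE complexes apart, had 0.09. Of the calcium sensors, Syt1 had 0.03, Syt2 -0.14 and Doc2b -0.13. Of the 6 active zone and priming genes, 5 were below 0, with Unc13a at -0.18 (adjusted p = 0.128) and the scaffolds Bsn (bassoon) and Pclo (piccolo) at -0.03 and -0.09. Erc2 (ELKS2), a further scaffold, had 0.08.

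The 5 vesicle membrane genes Syp (synaptophysin), Syngr1, Sv2a, Sv2b and Sv2c were between -0.05 and 0.02. Their 95% intervals lay within -0.13 to 0.12, so a change of over about 10% in either direction lay outside all 5 intervals. Slc17a7 and Slc17a6 had 0.01 and -0.01. The 3 recycling genes were each above 0, Dnm1 at 0.10 (adjusted p = 0.184), Synj1 at 0.06 and Amph at 0.05. Rab3a, whose effector is rabphilin, had 0.01 with a 95% interval of -0.08 to 0.09, in contrast to -0.27 to -0.08 for Rph3a, although the difference between these 2 genes was not tested.

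Cell-type markers moved with genotype too, with 24 of 87 (27.6%) called, 21 of them lower in KO mice, beside 10.5% of all genes. Of 8 oligodendrocyte markers, 5 were called lower in KO mice, and their sum was 344943 to 424484 with vehicle and 307380 to 360842 with memantine in WT mice, and 302401 to 319513 with vehicle and 250228 to 292888 with memantine in KO mice. Of 5 endothelial markers 4 were called lower, of 4 erythrocyte markers 3 (Hbb-bs, Hba-a2 and Hba-a1, at -0.84, -0.78 and -0.64), of 7 astrocyte markers 2 (Aqp4 at -0.56 and Gja1 at -0.22), of 3 oligodendrocyte precursor markers 1 and of 6 microglia markers 1. The astrocyte list was mixed. Its uncalled markers were Gjb6 (0.22) and Slc1a3 (0.11) above 0, and Aldoc (-0.02), Gfap (-0.12) and Aldh1l1 (-0.16) below 0. The sum of 7 neuron markers was 149100 to 156739, 144973 to 150990, 143731 to 147269 and 145734 to 149970 in the same order. Of these 7, 2 were called lower, Nefm (-0.43) and Nefl (-0.22). Tubb3 (-0.26) and Stmn2 (-0.14) were also below 0, and Map2 and Rbfox3 had -0.01 and 0.01. Snhg11, the most abundant of the 7 and so the largest part of the sum, had 0.12. Among 7 interneuron markers, 3 were called higher and 1 lower, the last being Pvalb, the parvalbumin gene of fast-spiking neurons, with -0.35 (adjusted p = 0.0405). The order of the groups by this oligodendrocyte sum, WT-Veh first and KO-Mem last, is also that of the Cplx1 means, and the part of cell makeup in these results was not tested.

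At baseline, comparing KO-Veh with WT-Veh mice (Veh-K/W transcripts, 3 against 3), 0 of 31 genes were called, beside 0.0283% of all genes. At an unadjusted p under 0.05 there was 1 gene, Cplx1, beside 14.4% of all genes. Cplx1 had -0.23 ± 0.08 (SE, adjusted p = 0.241), and -0.15 without WT-Veh 3. The KO mice were all below the WT mice for 3 of 31 genes, Cplx1, Cplx2 and Rph3a, beside 10.7% of all genes. The median log2 fold change of the members was 0.03, and -0.005 without WT-Veh 3, which was the lowest of 12 mice for many of them.

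Under memantine, comparing KO-Mem with WT-Mem mice (Mem-K/W transcripts), 0 of 31 genes were called, beside 0.068% of all genes. Of the 31 genes 24 had a log2 fold change below 0, beside 49.7% of all genes, with a median of -0.08 beside 0.00 over all genes. At an unadjusted p under 0.05, 9 genes were lower and 0 higher, beside 21% of all genes in either direction and 10.8% lower. All 3 KO-Mem mice were below all 3 WT-Mem mice for 9 genes, beside 13.5% of all genes. These were Syn1, Syn2, Syngr1, Doc2b, Cplx1, Cplx2, Rph3a, Slc17a7 and Slc17a8. The largest differences were those of Slc17a8 (-0.53 ± 0.14, adjusted p = 0.108), Unc13a (-0.28 ± 0.10, 0.156), Rph3a (-0.25 ± 0.07, 0.109), Rims1 (-0.24 ± 0.10, 0.220) and Syt2 (-0.24 ± 0.10, 0.229). Syn1 had the smallest adjusted p of the members, 0.0957, with -0.22 ± 0.05. The 3 recycling genes Dnm1, Synj1 and Amph were each above 0. Without KO-Mem 3, 5 members were called, Rph3a, Slc17a8, Stx1a, Syn1 and Unc13a, while the calls over all genes rose from 12 to 1911. With all 12 mice in 1 fit, 2 members were called, Rph3a (adjusted p = 0.0475) and Slc17a8 (0.0439), beside 636 calls over all genes.

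Unc13a encodes Munc13-1, which primes vesicles at most glutamatergic synapses. It was at 18678, 18387 and 15116 in WT-Mem and 12874, 14048 and 16040 normalized counts in KO-Mem mice, so that 1 mouse of each group crossed into the other. In the vehicle groups it was at 18712, 17095 and 16338 in WT-Veh and 17165, 18134 and 14367 in KO-Veh mice, which overlapped. Rims1, an active zone scaffold that binds Rab3 and Munc13, was at 9802, 9243 and 7286 in WT-Mem and 7014, 7134 and 7967 in KO-Mem mice. WT-Mem 3 was lower than the other WT-Mem mice for both genes, and it had the highest sum of the 2 brain stem markers found of 8 listed, 374 against 37.7 and 47.8 in WT-Mem 2 and WT-Mem 1. The part of this in the 2 genes was not tested.

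To determine how memantine altered these genes in each genotype, KO-Mem was compared with KO-Veh (KO-M/V transcripts) and WT-Mem with WT-Veh (WT-M/V transcripts). In KO mice 0 of 31 genes were called, as were 0% of all genes, and at an unadjusted p under 0.05 there were 3 genes, all lower, beside 8.88% of all genes. These 3 were Syt2 (-0.34 ± 0.11), Rims1 (-0.20 ± 0.06) and Rph3a (-0.15 ± 0.06), each with an adjusted p of 0.554. All KO-Mem mice were below all KO-Veh mice for 5 genes, the same 3 with Slc17a8 and Unc13c, beside 6.82% of all genes. In WT mice 0 of 31 were called, beside 0.0114% of all genes, and 0 had an unadjusted p under 0.05, beside 3.97%. WT-Mem mice were all above WT-Veh mice for 3 genes, Syp, Amph and Slc17a8, beside 4.15% of all genes, the last gene with 0.14 ± 0.13. The median of the members in WT-M/V transcripts was 0.04, and 0.01 without WT-Veh 3. The same KO-Mem mice enter KO-M/V and the Mem-K/W comparison above.

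Syt2 encodes synaptotagmin 2, the fast calcium sensor of brain stem and fast-spiking terminals. In normalized counts, WT-Veh mice had 2469, 2101 and 2545 and WT-Mem mice 2054, 2095 and 2304, whereas KO-Veh mice had 2164, 2234 and 2530 and KO-Mem mice 1559, 1893 and 2059. Replicate 3 was the highest in each of the 4 groups, among them WT-Veh 3 and KO-Veh 3. The KO-M/V difference was -0.22 without KO-Mem 1, the lowest mouse. Vamp1, the synaptobrevin of the same terminals, was highest in WT-Mem 3 (6814) and WT-Veh 3 (6656), and between 5333 and 6327 in the other 10 mice. Summed brain stem markers were also highest in these 2 mice and then in KO-Veh 3, at 374, 315 and 247 against 37.7 to 157 in the others, and their part in Syt2 and Vamp1 was not tested. Unc13c (Munc13-3), best known from cerebellar granule cells, was at 1723 in KO-Veh 3 against 1590 and 1669 in the other KO-Veh mice and 1419 to 1557 in KO-Mem mice, so the mouse with cerebellar RNA had the highest value of the 6 KO mice. WT-Veh mice had 1693 to 1826, and the part of cerebellar RNA in Unc13c was not tested.

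**Figure D5:**
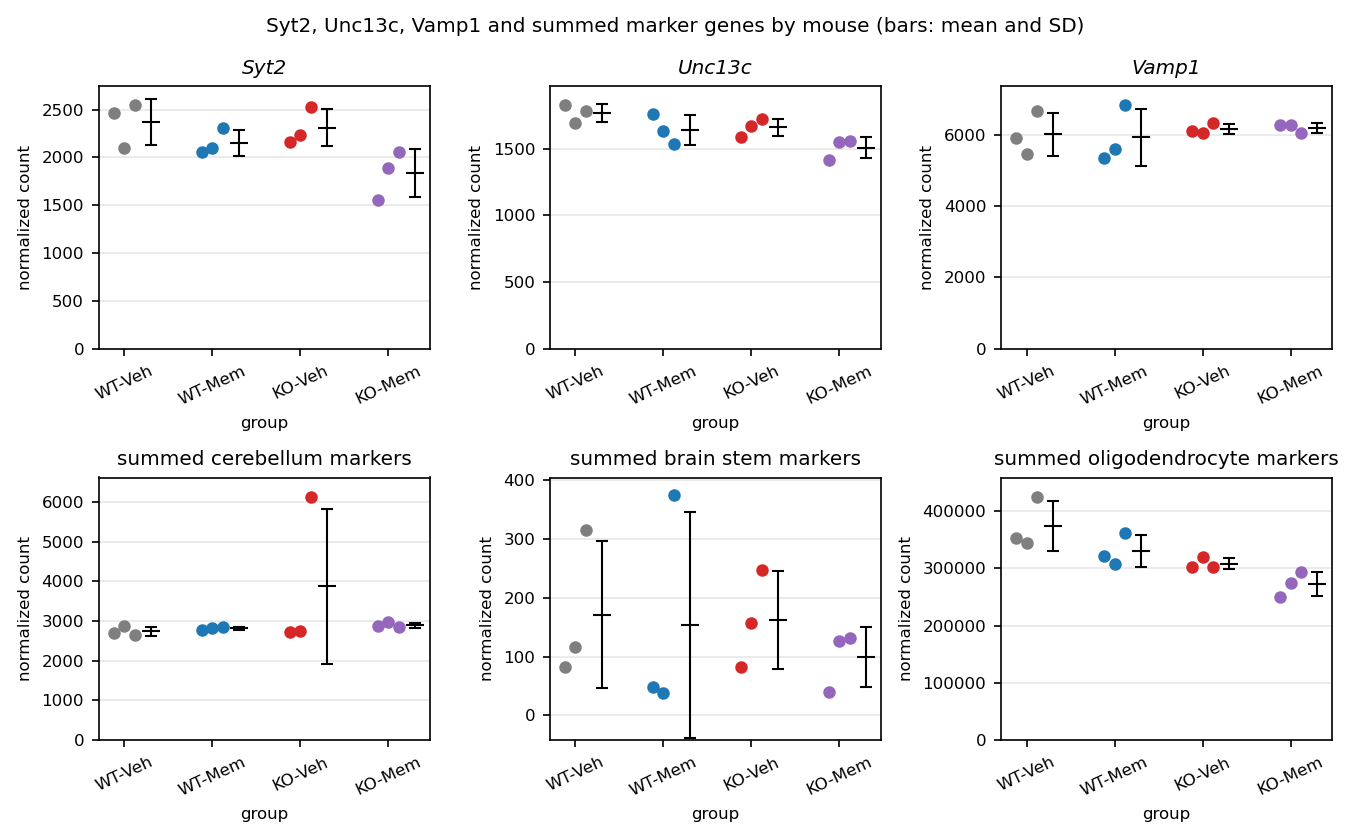
Normalized counts of Syt2, Unc13c and Vamp1 (top) and summed normalized counts of marker genes of cerebellum, brain stem and oligodendrocytes (bottom) in each mouse by group, with the mean and SD of 3 mice beside the points. KO-Veh 3 stands out in cerebellar markers (6127), WT-Mem 3 and WT-Veh 3 in brain stem markers (374 and 315) and WT-Veh 3 in oligodendrocyte markers (424484).

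Averaged over genotypes (6 memantine against 6 vehicle mice), memantine was accompanied by 0 of 31 calls, as by 0% of all genes, and by 3 genes at an unadjusted p under 0.05, beside 8.68% of all genes. Syt2 had -0.24 ± 0.07 and Unc13c -0.12 ± 0.05, whereas Erc2 had 0.10 ± 0.05, with adjusted p of 0.436, 0.536 and 0.556. For the genotype by treatment interaction, which is the Mem-K/W difference minus the Veh-K/W difference, 0 of 31 were called, as were 0% of all genes. The only gene at an unadjusted p under 0.05, beside 4.76% of all genes, was Slc17a8. Its interaction was -0.42 ± 0.18 (unadjusted p = 0.0396, adjusted p = 0.947), from 0.14 in WT-M/V to -0.28 in KO-M/V transcripts. The interaction was below 0 for 25 of 31 genes, beside 51.1% of all genes, with a median of -0.08, and of -0.04 without WT-Veh 3. A different response of these genes to memantine between genotypes was thus not detectable by gene at 3 mice per group.

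The question whether treated KO mice resembled untreated WT mice was addressed with KO-Mem against WT-Veh mice (KO-M/WT-V transcripts), and its counterpart was WT-Mem against KO-Veh mice (WT-M/KO-V transcripts). In KO-M/WT-V transcripts 0 of 31 genes were called, beside 3.37% of all genes, and at an unadjusted p under 0.05 there were 8 lower and 1 higher, beside 25.9% of all genes. The 8 were Slc17a8 (-0.39), Syt2 (-0.37), Unc13a (-0.28), Cplx1 (-0.25), Rph3a (-0.25), Unc13c (-0.23), Stx1a (-0.18) and Cplx2 (-0.14), and the higher gene was Erc2 (0.18), with adjusted p from 0.0734 to 0.191. Without KO-Mem 3, 4 members were called, Rph3a, Stx1a, Syt2 and Unc13a, while the calls over all genes rose from 595 to 2490. In WT-M/KO-V transcripts 0 of 31 were called, beside 0.0227% of all genes, and Cplx1 and Syn1 were higher in WT-Mem mice at an unadjusted p under 0.05 (both 0.14), beside 8.94% of all genes. For Cplx1 the 4 comparisons between genotypes lay on the same side, with KO lower by 0.14 to 0.25 on the log2 scale, but they share mice with each other.

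A further 74 genes of the same machinery were listed by role and all were tested. In the genotype comparison 4 of 74 (5.41%) were called, 3 lower and 1 higher in KO mice, beside 10.5% of all genes, 5.73% lower and 4.79% higher. Cacna1b, the pore of the N-type presynaptic calcium channel, was higher at 0.26 ± 0.05 (adjusted p = 0.0152). In normalized counts, WT-Veh mice had 6264, 5763 and 5933 and WT-Mem mice 6350, 6612 and 5317, whereas KO-Veh mice had 6831, 7163 and 7084 and KO-Mem mice 7966, 7226 and 6995. The 6 KO mice were all above the 6 WT mice, but the share of all genes for which this held is not given here. This call held with each of the 12 mice left out in turn, but not without WT-Veh 3 and KO-Veh 3 together (adjusted p = 0.0743). Syngr3, a synaptogyrin of the vesicle membrane, was lower at -0.19 ± 0.05 (adjusted p = 0.0279). Its 6 of 6 KO mice were below all WT mice, beside 2.2% of all genes whose KO mice were all lower. Stx4a, a syntaxin of the plasma membrane outside the active zone, had -0.32 ± 0.09 (0.0346), and Rims4, a short RIM protein, had -0.15 ± 0.05 (0.0489). The calls of Syngr3, Stx4a and Rims4 were lost in 7, 9 and 11 of the 12 fits without 1 mouse, with adjusted p up to 0.0776, 0.0882 and 0.123, and each was lost without WT-Veh 3 and KO-Veh 3. Syngr3 kept its call without WT-Veh 1, WT-Veh 3, WT-Mem 1, KO-Veh 2 or KO-Mem 3, Stx4a without WT-Veh 1, WT-Mem 2 or KO-Mem 3, and Rims4 without KO-Mem 3 alone. At an unadjusted p under 0.05, 9 of 74 were higher and 10 lower (25.7% in all), beside 29.4% of all genes. Their median log2 fold change was 0.00, beside -0.03 for the 31 genes. Of the pairwise comparisons, only KO-M/WT-V had a call among the 74, again Cacna1b (0.30 ± 0.07, adjusted p = 0.0482), and this call held only without KO-Mem 3, with adjusted p of 0.0738 to 0.166 without any other of its 6 mice.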

How the data were processed

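The authors sequenced poly-A RNA of 12 forebrains, estimated transcripts with Salmon (1.1.0, GRCm38, GC bias correction), summed them to genes with tximport and deposited counts divided by DESeq2 normalization factors. These deposited signal values are not whole and not logged. The submitters' notes name R 3.6.2 and DESeq2 1.26.0, and the annotation release is not given in the sources used here. Groups and replicate numbers came from the sample titles. Each separate mouse is 1 replicate. The steps here used R 4.3.3 and limma 3.58.1: log2(value + 1), genes whose mean in the mice fitted was 10 or more, lmFit and eBayes with a variance trend, Benjamini-Hochberg adjustment over all genes tested and a threshold of 0.05. Each pairwise comparison used its own 6 mice, and the averaged comparisons and the interaction used all 12. All errors of log2 fold changes are moderated SEs, and fold changes on this scale understate changes of low genes. Symbols, positions and merged exon lengths came from GENCODE M21 (19295 genes matched) and promoters from RefSeq GRCm38.p6. The fit was tested on simulated data. Genes are named where they are members, or other listed genes past the threshold. The members, gene lists and tests were chosen with earlier results of these data known. Depth per mouse was not given, and its effect was gauged only roughly, from the median of low values above 0. Alternatives were a pseudocount of 5, no filter, a mean of at least 50, rescaling to equal sums, quantile normalization, no variance trend, a replicate block, all 12 mice in each pairwise fit, and leaving out each mouse. Leaving out WT-Veh 3 and KO-Veh 3 together was added after seeing the data. KO-Mem 1, which also stood apart in markers, was left out only on its own.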

Additional observations from a re-analysis of the deposited data

How the results depend on the processing

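None of the genes recomputed under the alternatives, those named in each comparison for their size or p, changed direction. In the genotype comparison, Cplx1, Rph3a and Slc17a8 were lower in 20 of 20 alternatives and still called in 14, 10 and 8, and Cacna1b was higher in 20 and called in 18. Of the 31 genes, 5 were called with quantile normalization (Syn1 and Dnm1 added, Dnm1 higher), 1 without the variance trend (Slc17a8), 0 without WT-Veh 3 and KO-Veh 3, and 0 to 5 leaving out 1 mouse. The counts were 0 without KO-Veh 1, KO-Veh 3, KO-Mem 1 or KO-Mem 2, 1 without WT-Veh 2 or WT-Mem 1, and 5 without KO-Mem 3. Of all genes, 1856 were called there, 670 without the trend, 74 without the 2 mice and 528 to 3263 leaving out 1. Rescaling to equal sums moved the split of these calls from 845 higher and 1011 lower to 1072 and 858. With all 12 mice in 1 fit, 2 of 31 were called in Mem-K/W (Rph3a, Slc17a8) and 4 in KO-M/WT-V (Cplx1, Rph3a, Syt2, Unc13c), and leaving out 1 mouse gave 0 to 5 and 0 to 4.

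Calls over all genes were few and uneven between settings. Veh-K/W had 5, with 3 at a pseudocount of 5, 2 at a mean of 50, 2 with the block, 2 with all 12 mice, 3 without the 2 mice and 2 to 53 leaving out 1. Mem-K/W had 12, with 5 without a filter, 4 without the trend, 4 with the block, 636 with all 12 mice and 2 to 1911 leaving out 1. WT-M/V had 2, with 1 at a pseudocount of 5, 0 at a mean of 50, 1 with quantile normalization, 1 with the block, 0 with all 12 mice and 1 to 3 leaving out 1. KO-M/WT-V had 595, with 365 without a filter, 7 without the trend, 999 with the block, 2067 with all 12 mice and 1 to 2490 leaving out 1. WT-M/KO-V had 4, with 0 without the trend, 2 with the block and 1 to 5 leaving out 1. KO-M/V, memantine averaged and the interaction had 0, and 0 to 97, 0 to 120 and 0 to 4 leaving out 1. In every comparison that included KO-Mem 3, also the genotype comparison, the highest count leaving out 1 mouse was that without KO-Mem 3. The causes were not tested.

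No pairing of the mice by replicate number was seen over all genes. The correlation of deviations ran from -0.18 to 0.08 over 18 pairs with the same number. Over 36 pairs with different numbers it ran from -0.14 to 0.18. These correlations cannot exclude a link between the number and a few genes, and replicate 3 had the highest Syt2 value and brain stem marker sum in each group. With the number as a replicate block, 2 of the 31 genes were called by genotype (Cplx1, Rph3a), and Slc17a8 had an adjusted p of 0.0501. With 3 mice per group, small differences in these genes would not pass the adjustment, so a missing call does not show equal levels.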
